A study of Saccharomyces cerevisiae with 42 samples.

Results

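The genes described here build, remodel and guard the yeast cell wall. They were chosen by name: glucan and chitin synthases, enzymes that trim and join wall polysaccharides, wall mannoproteins, surface proteases and the kinase pathway that guards the wall. All 41 named genes were found among the 6106 genes of the deposited table, which also lists 92 spike-in RNAs. The RNA came from Saccharomyces cerevisiae BY4741, a MATa strain deleted for HIS3, LEU2, URA3 and MET15, which had been made prototrophic with a plasmid that carries these genes. Every culture of 200 ml contained 0.3% ethanol and was started at an A600 of 0.15 from a saturated overnight culture, in medium held at 30 °C. Vehicle cultures held ethanol alone, and the others also held 700 ng/ml of myriocin (Myr), which inhibits serine palmitoyltransferase, the first enzyme of sphingolipid synthesis. Cells were taken at 0 h, when they had just been diluted, and at each hour up to 6 h, which gave 14 groups of 3 libraries. All hours of a replicate came from the same flask, so p-values that average over or compare hours take values of 1 flask as independent. Vehicle and Myr samples also received different spike-in mixes, and the mix and the treatment cannot be told apart.

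The yeast wall is a mesh of beta-1,3-glucan, to which beta-1,6-glucan, a little chitin and an outer coat of mannoproteins are attached. Glucan and chitin are made by enzymes in the plasma membrane, in part with subunits that replace each other under stress, and the polymers are then cut, lengthened and cross-linked outside the cell. When the wall is strained, surface sensors act through Rho1 and protein kinase C on a kinase cascade that ends in the MAP kinase Slt2, which in turn acts on the transcription factor Rlm1. Sphingolipids make up part of the membrane in which the synthases and sensors lie, and their ceramide is used to remodel the lipid anchors of many wall mannoproteins.

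Levels are given in TPM, transcripts per 1000000, so each is a share of its library and corrected for transcript length. The depth of a library cannot be read from TPM and is unknown. Differences are on the scale of log2(TPM + 1), which understates the change of genes near 1 TPM, and come from limma fitted to 5983 genes whose mean TPM was 1 or more. All 41 wall genes passed that filter. Over all genes, the median difference between Myr and vehicle was 0.18 over 1 to 6 h and 0.31 at 5 h. It was 0.02 and 0.01 after median centring, in which each library is shifted so that its typical gene matches the average of all libraries, and 0.75 over 1 to 6 h when libraries were scaled to their spike-ins. RPL41A, for a very short ribosomal protein, was above 70000 TPM in 4 vehicle libraries, A and B of 3 h, B of 4 h and A of 5 h. The part of that library composition in the differences below was not tested, and values without these libraries are given where they move a count. The a-cell genes MFA1 (2082 to 5541 TPM), MFA2 (4347 to 15063 TPM) and STE2 (50.9 to 461 TPM) were present in every library. The a-cell genes BAR1 and STE6 lay at 7.27 to 122 and 10.1 to 71.5 TPM. The alpha-cell genes STE3 and SAG1 lay at 3.72 to 14.3 and 7.56 to 21.1 TPM, ranges that overlap those of BAR1 and STE6. HIS3, LEU2, URA3 and MET17, the current name of MET15, were each at 44.9 TPM or more in every library.

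Levels of the 41 genes covered a wide range. Averaged over 1 to 6 h, 5 of them lay above 1000 TPM, 14 between 100 and 1000, 20 between 10 and 100, and 2 below 10. The most abundant were CCW12, at a mean of 14286 TPM, and CWP2, at 12269 TPM, both for small mannoproteins held in the wall by the remnant of a lipid (GPI) anchor. The least abundant were FKS3, at 3.43 TPM, and GAS4, at 2.67 TPM, which serve mainly in making the spore wall. Together the 41 genes held from 3.01% of TPM (vehicle 1 h) to 4.74% (Myr 2 h), with 1.25% to 3.45% from CCW12 and CWP2.

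With Myr, wall genes moved in both directions, and the largest differences of single genes were seen at 5 h. Of the 41 genes, 18 were higher and 8 lower at 5 h, at an adjusted p under 0.05 from limma. Over all genes tested, 52.2% were higher and 3.99% lower at that hour. The median difference of the 41 genes was 0.20, below that of all genes (0.31). The genes that were higher by at least 2-fold at 5 h were GSC2, YPS1, CWP1, CHS1 and SCW10, 5 of the 41, against 5.52% of all genes, and TIP1 was lower by at least as much, against 0.585% of all genes. At 6 h, 19 of the 41 were higher and 5 lower, where 19.6% and 3.43% of all genes were. Here the median was 0.29 against 0.15 for all genes. Single libraries moved the counts of lower genes: at 5 h 5 were lower without vehicle library B or C or Myr library A or C of that hour, and at 6 h 3 were lower without Myr library B of 6 h and 8 without vehicle library B of 4 h.

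Before 5 h fewer wall genes were called than at 5 h, and the counts moved with single libraries. At 1 h, 5 wall genes were higher (SCW4, SCW10, SCW11, PIR1 and ECM33) and KDX1 was lower, where 2.42% and 3.01% of all genes were. Without vehicle library A or B of 1 h 3 were higher, and without vehicle library B of 4 h 9 were. At 2 h, 15 were higher and 1 lower, with 16% and 2.49% of all genes. Leaving out any of 5 libraries of 2 h (vehicle C or D, Myr A, B or C) left 4 to 7 higher. At 3 h, 12 were higher and 3 lower, with 39.4% and 2.62% of all genes. Without vehicle library B of 3 h the count of higher genes was 2, without vehicle library A or Myr library A or B it was 4, without vehicle library B of 4 h it was 19, and without the 4 libraries rich in RPL41A it was 1. At 4 h, 2 were higher (GSC2 and YPS1) and 4 lower (TIP1, TIR1, TIR3 and UTR2), with 6.12% and 0.953% of all genes. Leaving out 1 library of 4 h (vehicle B, C or D or Myr A, B or C) left 1 to 5 higher and 1 to 5 lower, and without Myr library A of 2 h 2 were lower.

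A few wall genes already differed at 0 h. In the model of all 42 libraries 2 were higher with Myr and 4 lower, where 8.26% and 3.63% of all genes were. CWP1 stood at 176, 120 and 157 TPM in the vehicle libraries of 0 h and at 74.7, 59.3 and 66.2 TPM in the Myr libraries. SCW11 stood at 25.6, 20.1 and 32.3 TPM against 62.1, 59.3 and 65.4 TPM. These groups did not overlap, and CWP1 was lower by 1.16 (SE 0.13) and SCW11 higher by 1.25 (SE 0.14). Over all genes, every Myr library of 0 h was above every vehicle library for 14.7% and below for 461 genes. When 0 h was fitted on its own, 0 wall genes passed limma's test in either direction. Leaving out 1 library at a time gave 1 to 7 higher and 2 to 8 lower, with the extremes without Myr library C or A of 0 h, vehicle library A of 0 h and vehicle library B of 4 h, and 4 higher without vehicle library D of 0 h.

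Averaged over 1 to 6 h, 25 wall genes were higher and 4 lower at p of 0.01 or less, where 64.5% and 5.65% of all genes were. The 4 lower genes were TIP1, TIR1, TIR3 and UTR2. All 41 changed with time, as did 86.5% of all genes. The size of the difference between Myr and vehicle changed with the hour for 24 of the 41, against 22.6% of all genes. At single hours 36 wall genes passed the test at least once, and FKS1, CHS7, TIR4, CCW12 and CCW14 did not. Another 5 (GAS3, EXG1, PIR3, TIR1 and KDX1) were higher at some hours and lower at others. Over all genes neither share was counted, but at 5 h alone 52.2% were higher and 3.99% lower.

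**Figure D1:**
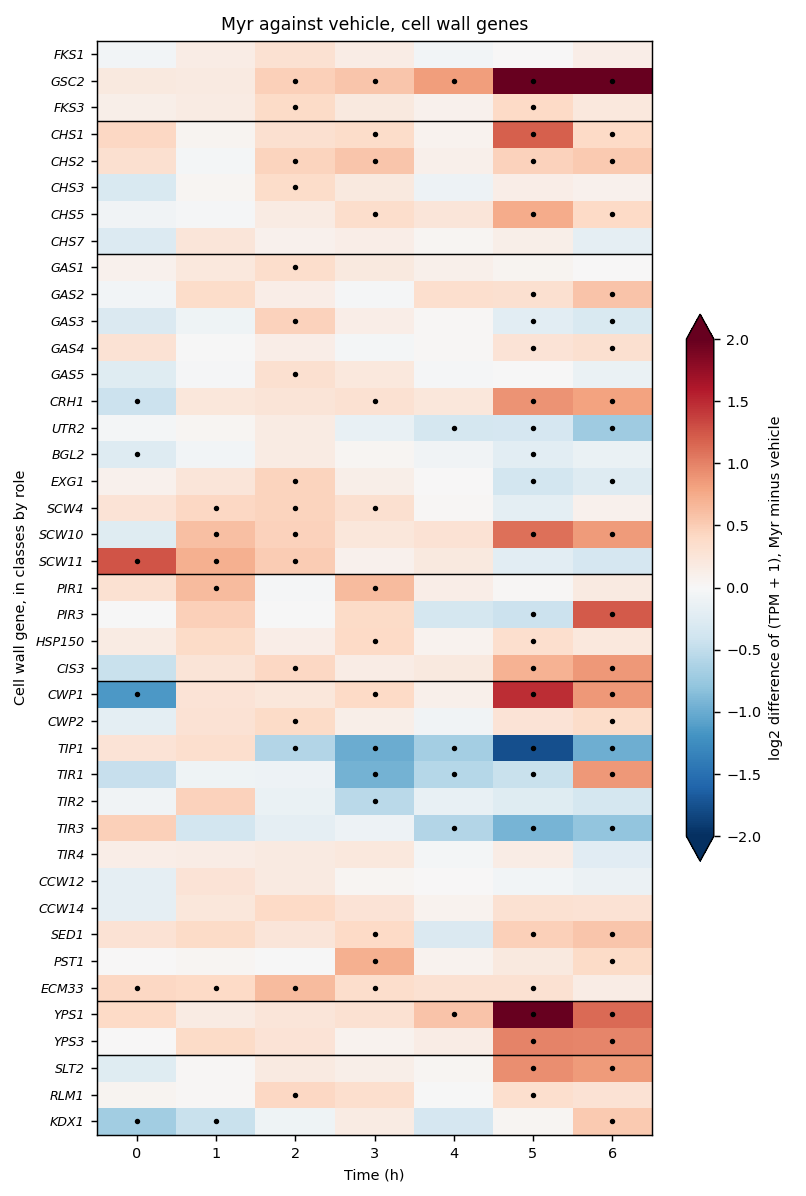
Log2 difference of (TPM + 1) between Myr and vehicle for the 41 wall genes (rows, in classes by role, separated by lines) at 0 to 6 h (columns). Red is higher with Myr, blue is lower, dots mark an adjusted p under 0.05, and the colour scale ends at 2 in either direction. GSC2 and YPS1 stand out in red at 5 and 6 h and TIP1 in blue from 2 h on, a direction that turned at 2 h after spike-in scaling (0.25).

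Of the 3 genes at the kinase end of the integrity pathway, only SLT2 was higher with Myr at both 5 and 6 h. At 5 h SLT2 and RLM1 were higher and at 6 h SLT2 and KDX1, where 52.2% and 19.6% of all genes were. SLT2, for the MAP kinase of the pathway (chromosome VIII, 168890 to 170344 in R64), was at 31.8, 43.0 and 41.8 TPM in the vehicle libraries of 5 h and at 71.6, 75.03 and 76.2 TPM in the Myr libraries. Every Myr library was above every vehicle library, as for 64.7% of all genes at 5 h. The difference was 0.93 at 5 h (SE 0.13, adjusted p = 5.87e-07) and 0.85 at 6 h (SE 0.13). At 1 to 4 h SLT2 did not pass the test, with differences between 0.03 and 0.19. RLM1, for the transcription factor that Slt2 activates, was higher by 0.34 at 5 h (SE 0.14), close to the median of all genes. KDX1, for a pseudokinase related to Slt2 whose gene depends on Rlm1, was already lower at 0 h, at 36.5, 47.9 and 35.9 TPM in vehicle and 23.9, 20.2 and 29.3 TPM with Myr, a difference of -0.69 (SE 0.13). It was lower by 0.45 at 1 h (SE 0.11), differed by 0.04 at 5 h without passing, and was higher by 0.53 at 6 h (SE 0.11). At 6 h it lay at 15.6, 18.03 and 14.8 TPM in vehicle and 24.8, 22.4 and 23.7 TPM with Myr.

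Rlm1 binds a short A- and T-rich site with CTA at its start and TAG at its end. That site was searched, on both strands, in the 500 bases before each start codon of the R64 genome. It was found before 9 of the 41 wall genes (22.0%) and before 108 of the 5863 genes with a full window (1.84%). The sites are shown because Rlm1 is the factor at the end of the pathway. The wall genes were not chosen by these sites, but the choice took in genes of this pathway, RLM1 among them. The difference between the shares was not tested. Each of the 9 sites is given in capitals with 20 bases on either side, written 5′ to 3′ on the strand of its gene.
GAS5, chrXV:268044-268093, plus strand: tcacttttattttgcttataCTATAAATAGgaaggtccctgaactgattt
BGL2, chrVII:1058914-1058963, minus strand: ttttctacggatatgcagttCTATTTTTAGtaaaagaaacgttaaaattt
PIR3, chrXI:144101-144150, plus strand: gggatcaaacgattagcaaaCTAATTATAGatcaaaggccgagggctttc
HSP150, chrX:120206-120255, plus strand: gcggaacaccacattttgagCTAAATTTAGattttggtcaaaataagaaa
CWP1, chrXI:260726-260775, plus strand: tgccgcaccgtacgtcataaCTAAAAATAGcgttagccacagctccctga
CCW14, chrXII:903485-903534, plus strand: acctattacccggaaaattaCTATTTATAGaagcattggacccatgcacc
SED1, chrIV:600293-600342, plus strand: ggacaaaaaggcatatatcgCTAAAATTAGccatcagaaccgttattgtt
PST1, chrIV:563202-563251, plus strand: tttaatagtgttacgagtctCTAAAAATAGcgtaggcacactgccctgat
RLM1, chrXVI:381429-381478, minus strand: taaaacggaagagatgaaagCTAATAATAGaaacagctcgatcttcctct
The sites lay 113 to 470 bases before the start codon, and 6 of the 9 belong to genes for PIR or GPI-anchored mannoproteins, with RLM1 itself among the other three. CWP1 and PST1 carried the same 10 bases.

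The site was found among higher, lower and other wall genes alike. At 5 h it stood before 4 of the 18 wall genes that were higher (22.2%), before 2 of the 8 that were lower (25.0%) and before 3 of the 15 others (20%). No match lay in the window of GSC2, YPS1 or SLT2, all of them higher at 5 h. None lay in that of KDX1 either, although its gene depends on Rlm1. Of the other sites searched on both strands, CGCGAAA, bound by the G1 factor SBF, was found before 10 wall genes (24.4%) and 5.87% of all genes. The stress site AGGGG was found before 8 (19.5%) and 34.2%, and GNGGCNCA, bound by the calcineurin-dependent factor Crz1, before 2 (4.88%) and 7.66%. The 2 genes with the last of these were CHS1 and GAS4. A match only says that these letters are in the window, and the lack of a match does not show that a factor has no effect on the gene. Whether Rlm1 had a part in any difference was not tested.

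Of the genes for catalytic subunits of beta-1,3-glucan synthase, GSC2 was higher with Myr from 2 h on, while FKS1 did not pass the test between Myr and vehicle at any hour as deposited. GSC2, also called FKS2, encodes the subunit used under starvation and stress (chromosome VII, 548264 to 553951). It was at 6.81, 6.81 and 7.31 TPM in the vehicle libraries of 5 h and at 65.8, 82.2 and 80.4 TPM in the Myr libraries. The lowest Myr value was thus well above the highest vehicle value, and the difference of 3.27 (SE 0.13, adjusted p = 1.58e-18) was the largest of the 41 genes. At 6 h the Myr libraries were at 62.5, 50.2 and 62.2 TPM against 6.72, 8.56 and 9.07 TPM, a difference of 2.70 (SE 0.13). GSC2 had been higher with Myr from 2 h on, by 0.47 at 2 h, 0.56 at 3 h and 0.84 at 4 h. With each hour fitted on its own, GSC2 did not pass at 4 h. Between 4 and 5 h it rose with Myr by 2.10 (SE 0.13), while in vehicle its change of -0.33 did not pass the test.

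FKS1 encodes the subunit used in growing cells (chromosome XII, 809997 to 815627). At 5 h it was at 85.7, 95.2 and 98.9 TPM in vehicle and 89.1, 89.7 and 102 TPM with Myr, groups that overlapped, with a difference of 0.00 (SE 0.13). After median centring its difference of -0.32 at 5 h did pass, as a lower level. In vehicle at 5 h FKS1 was at 93.3 ± 6.79 TPM (SD, n = 3) and GSC2 at 6.98 ± 0.29 TPM. With Myr the means were 93.5 ± 7.05 and 76.1 ± 8.98 TPM, so the levels of the pair lay close to each other. FKS3, the third relative, was higher by 0.41 (SE 0.13) at 5 h, from 2.34 to 2.37 TPM in vehicle to 3.26 to 3.68 TPM with Myr. The coding sequences of FKS1 and GSC2 are 80.8% identical where aligned, but only 0.411% of the 31-base words of FKS1 also occur in GSC2.

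Among chitin genes, CHS1 changed most. CHS1, for the synthase that repairs the septum as daughter cells separate, was at 22.9, 29.5 and 26.8 TPM in vehicle at 5 h and at 56.0, 62.8 and 65.0 TPM with Myr. The groups were far apart, with a difference of 1.19 (SE 0.14, adjusted p = 7.22e-08), and came closer at 6 h, where the difference was 0.40 (SE 0.14). CHS5, part of the exomer coat that carries Chs3 to the cell surface, was at 46.4, 53.2 and 53.3 TPM in vehicle at 5 h and 82.3, 84.8 and 89.7 TPM with Myr, a difference of 0.74 (SE 0.12). CHS2, for the synthase of the primary septum, was higher by 0.47 at 5 h and 0.53 at 6 h (SE 0.13 each). CHS3, for the synthase of most wall chitin, passed the test only at 2 h, with 0.37 (SE 0.12). Its difference at 5 h was 0.13 (SE 0.12), and that of CHS7, which helps Chs3 leave the endoplasmic reticulum, was 0.11 (SE 0.09). In all, 3 of the 5 chitin genes were higher at each of 5 and 6 h, where 52.2% and 19.6% of all genes were, and 0 were lower. After median centring CHS3 (-0.19) and CHS7 (-0.21) passed as lower at 5 h and CHS2 (0.15) no longer passed.

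The yapsins are aspartyl proteases anchored at the cell surface that cut wall and surface proteins. YPS1 (chromosome XII, 386511 to 388220) was at 23.8, 27.4 and 27.9 TPM in vehicle at 5 h and at 114, 143 and 140 TPM with Myr. All Myr libraries were far above the highest vehicle library, and the difference was 2.28 (SE 0.14, adjusted p = 3.36e-14). It was 0.58 at 4 h, where YPS1 did not pass when that hour was fitted on its own. At 6 h, where the mean TPM was 2.23-fold higher and the test was passed, YPS1 was at 84.8, 71.9 and 84.4 TPM with Myr and 32.7, 40.1 and 35.2 TPM in vehicle. YPS3, its neighbour 523 bases away, was higher by 0.99 at 5 h (SE 0.13) and 0.97 at 6 h (SE 0.13). At 5 h YPS3 was at 19.6, 19.1 and 23.3 TPM in vehicle and 37.1, 47.4 and 42.1 TPM with Myr. YPS3 did not pass the test before 5 h, and the pair shares no 31-base word.

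**Figure D2:**
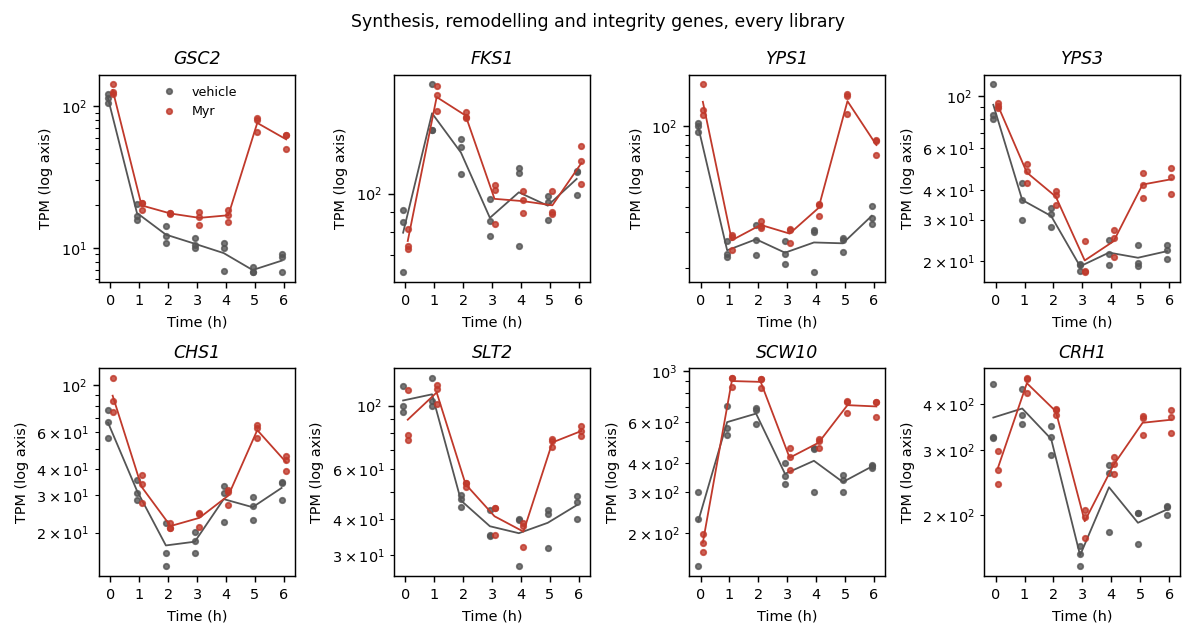
TPM (log axis) of 8 synthesis, remodelling, protease and kinase genes in every library at 0 to 6 h, vehicle in grey and Myr in red, with lines through the group means. At 5 h GSC2 is at 6.81 to 7.31 TPM in vehicle and 65.8 to 82.2 TPM with Myr, while FKS1 overlaps between the treatments.

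Enzymes that remodel glucan and chitin divided at 5 h, with 4 of 12 higher, 4 lower and a median of -0.11, where 52.2% of all genes were higher and 3.99% lower. SCW10, for a glucanase-like wall protein, was at 300.2, 337 and 357 TPM in vehicle and at 656, 744 and 733 TPM with Myr, a difference of 1.10 (SE 0.12, adjusted p = 1.68e-08). It was also higher at 1 h, by 0.60 (SE 0.12), at 2 h, by 0.46, and at 6 h, by 0.85. The groups did not overlap at 1, 2, 5 or 6 h. SCW4, a relative with 68.3% identity in the aligned coding sequence, was higher at 1, 2 and 3 h, by 0.42, 0.45 and 0.32. At 5 h SCW4 had a difference of -0.20 (SE 0.10) that did not pass.

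CRH1 and UTR2 encode transglycosylases that join chitin to glucan, and they moved in opposite directions. CRH1 was at 168, 202 and 203 TPM in vehicle at 5 h and at 330, 371 and 368 TPM with Myr, a difference of 0.90 (SE 0.11), and was 0.80 higher at 6 h. UTR2 at 6 h was at 427, 442 and 442 TPM in vehicle and at 277, 250 and 272 TPM with Myr, a difference of -0.72 (SE 0.09, adjusted p = 2.5e-07). The groups of each gene were apart. UTR2 was also lower at 4 h and at 5 h, by 0.34 at each, and the difference between the treatments changed with the hour for both genes. After spike-in scaling UTR2 had differences of 0.15 at 5 h and -0.39 at 6 h that did not pass.

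Other remodelling enzymes shifted less. EXG1, for the main exo-1,3-glucanase, went from 0.44 higher at 2 h to 0.37 lower at 5 h. GAS3 went from 0.47 higher at 2 h to 0.31 lower at 6 h. BGL2, for an abundant endoglucanase, was lower by 0.21 at 5 h (SE 0.06). GAS1, for the main glucan-elongating enzyme of growing cells, was higher by 0.35 at 2 h and differed by 0.05 and 0.00 at 5 and 6 h. The sporulation relatives GAS2 and GAS4 were higher by 0.33 and 0.28 at 5 h, from low levels. SCW11, a daughter-cell glucanase-like gene, was already higher with Myr at 0 h, as given above, and was higher by 0.72 at 1 h and 0.51 at 2 h. It lay below vehicle at 6 h, by a difference of -0.33 (SE 0.12) that did not pass.

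The PIR proteins, which are bound directly to beta-1,3-glucan, included a gene that changed sign within an hour. PIR3 was at 19.0, 24.0 and 25.0 TPM in vehicle at 5 h and at 15.1, 17.0 and 17.5 TPM with Myr, a difference of -0.43 (SE 0.18, adjusted p = 0.0411). At 6 h it was at 14.2, 18.5 and 15.6 TPM in vehicle and at 36.3, 35.6 and 44.9 TPM with Myr, a difference of 1.22 (SE 0.18, adjusted p = 4.1e-06). The groups did not overlap at either hour. After spike-in scaling the value at 5 h was 0.05 and the value at 6 h 1.57. CIS3, the most abundant of the class, was higher by 0.70 at 5 h and 0.87 at 6 h, when it was at 1000.4, 987 and 1028 TPM in vehicle and 1919, 1699.7 and 1922 TPM with Myr. PIR1 was higher at 1 h and 3 h, by 0.64 and 0.63, but differed by 0.03 at 5 h. HSP150, a secreted PIR protein, was higher by 0.34 at 5 h (SE 0.14), with groups that overlapped. PIR1 and PIR3 share 10.0% to 10.5% of their 31-base words and HSP150 and CIS3 2.89% to 5.35%, so some reads of each pair could have been split between its members.

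GPI-anchored mannoproteins formed the class with the strongest decreases. TIP1, for a wall protein of the cold- and oxygen-regulated TIP/TIR family (chromosome II, 372103 to 372735), was at 394, 494 and 547 TPM in vehicle at 5 h and at 135, 141 and 141 TPM with Myr. The highest Myr value was far below the lowest vehicle value, with a difference of -1.76 (SE 0.13, adjusted p = 3.73e-12). As deposited, TIP1 was lower with Myr at every hour from 2 to 6 h, by 0.58 at 2 h, 1.00 at 3 h, 0.68 at 4 h and 0.97 at 6 h. In vehicle TIP1 was at 208 ± 20.4 TPM at 1 h and at 438 ± 40.3 TPM at 6 h (SD, n = 3), a rise of 1.07, and with Myr its change of -0.24 over these hours did not pass.

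Other members of the TIP/TIR family followed TIP1 in part. TIR3 was at 62.0, 69.4 and 81.4 TPM in vehicle at 5 h and at 31.1, 40.1 and 39.2 TPM with Myr, and was lower by 0.58 at 4 h, where the groups overlapped, 0.93 at 5 h and 0.79 at 6 h. TIR1 was at 115, 93.4 and 113 TPM in vehicle at 3 h and at 66.5, 50.1 and 50.2 TPM with Myr, a difference of -0.94 (SE 0.18). At 6 h it was instead higher, at 125, 78.1 and 114 TPM against 58.1, 60.4 and 50.9 TPM, a difference of 0.87 (SE 0.18). TIR2 was lower at 3 h alone, by 0.53, and TIR4 passed at no hour. After spike-in scaling TIP1 was lower at 5 h, by 1.27, and at 6 h, by 0.65. Its differences of 0.25 at 2 h, -0.18 at 3 h and -0.07 at 4 h then did not pass, nor did TIR1 (0.03) and TIR3 (-0.45) at 5 h. With each hour fitted on its own, 0 wall genes passed limma's test as lower at 4 h, TIP1 included.

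CWP1 led the increases of the class. It was at 49.8, 52.0 and 62.7 TPM in vehicle at 5 h and at 148, 164 and 148 TPM with Myr, a difference of 1.47 (SE 0.12, adjusted p = 1.1e-11) with no overlap. In vehicle CWP1 rose between 5 and 6 h to 217, 200.3 and 206 TPM, and with Myr it reached 378, 362 and 403 TPM, which was 0.87 higher (SE 0.12). CWP2, its neighbour on chromosome XI and 1600 bases away, was higher at 2 h and 6 h only, by 0.38 and 0.37. At 6 h CWP2 was at 13707, 13613 and 14046 TPM in vehicle and at 18205, 16198 and 19234 TPM with Myr.

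The remaining mannoprotein genes moved by less than 2-fold. SED1, for a structural protein of the stationary-phase wall, was higher by 0.40 at 3 h, 0.48 at 5 h and 0.55 at 6 h. PST1, a gene known to respond to wall damage, was at 60.2, 66.3 and 64.5 TPM in vehicle at 3 h and at 109, 109 and 95.6 TPM with Myr, a difference of 0.71 (SE 0.11). At 5 h PST1 differed by 0.20 (SE 0.11) and did not pass. ECM33, the relative of PST1 used in growing cells, was higher at 1, 2, 3 and 5 h, most at 2 h, by 0.64 (SE 0.11). CCW12, the most abundant, differed by -0.05 at 5 h (SE 0.11), with overlapping groups at 11357 to 15644 TPM in vehicle and 11827 to 13985 TPM with Myr. In all, 3 of the 12 mannoprotein genes rose and 3 fell against vehicle at 5 h, where 52.2% and 3.99% of all genes did, and 5 were higher and 2 lower at 6 h, where 19.6% and 3.43% were.

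**Figure D3:**
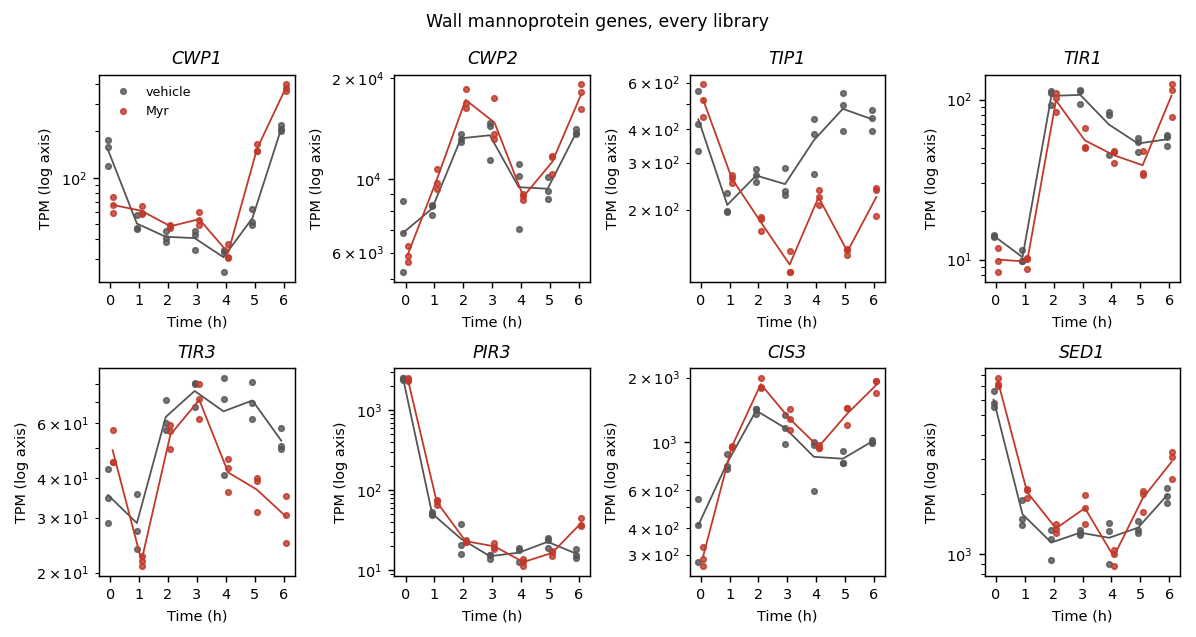
TPM (log axis) of 8 wall mannoprotein genes in every library at 0 to 6 h, vehicle in grey and Myr in red, with lines through the group means. TIP1 lies at 394 to 547 TPM in vehicle and 135 to 141 TPM with Myr at 5 h, and PIR3 and TIR1 cross from lower to higher between 5 and 6 h.

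The balance of higher and lower genes at 5 h depended on the scaling, while the largest changes kept their direction and passed the test. After median centring, 10 of the 41 wall genes were higher at 5 h and 19 lower, where 23.6% and 20.8% of all genes were. The 10 higher genes were GSC2, YPS1, CWP1, CHS1, SCW10, YPS3, SLT2, CRH1, CHS5 and CIS3. At 6 h the centred counts were 17 and 11, against 18.1% and 10.8% of all genes, and averaged over 1 to 6 h they were 15 and 12, against 26.5% and 18.5%. After spike-in scaling 30 were higher and 1, TIP1, lower at 5 h, where 87.7% and 0.618% of all genes were. The named difference of each of the 7 genes past 2-fold (GSC2, YPS1, CWP1, CHS1, SCW10 and TIP1 at 5 h and PIR3 at 6 h) kept its direction and passed the test under all 53 other settings. Most of these settings left out 1 library, often of another hour, which leaves the difference itself unchanged. GSC2 ranged from 2.34 to 3.84 and TIP1 from -2.09 to -1.27. CHS1 ranged from 0.83 to 1.70, SCW10 from 0.71 to 1.60 and PIR3 from 0.905 to 1.57, so each of these was below 2-fold under some setting. Just inside that limit stood SCW10 (1.10) and just outside it YPS3 (0.99), SLT2 (0.93), TIR3 (-0.93) and CRH1 (0.90).

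**Figure D4:**
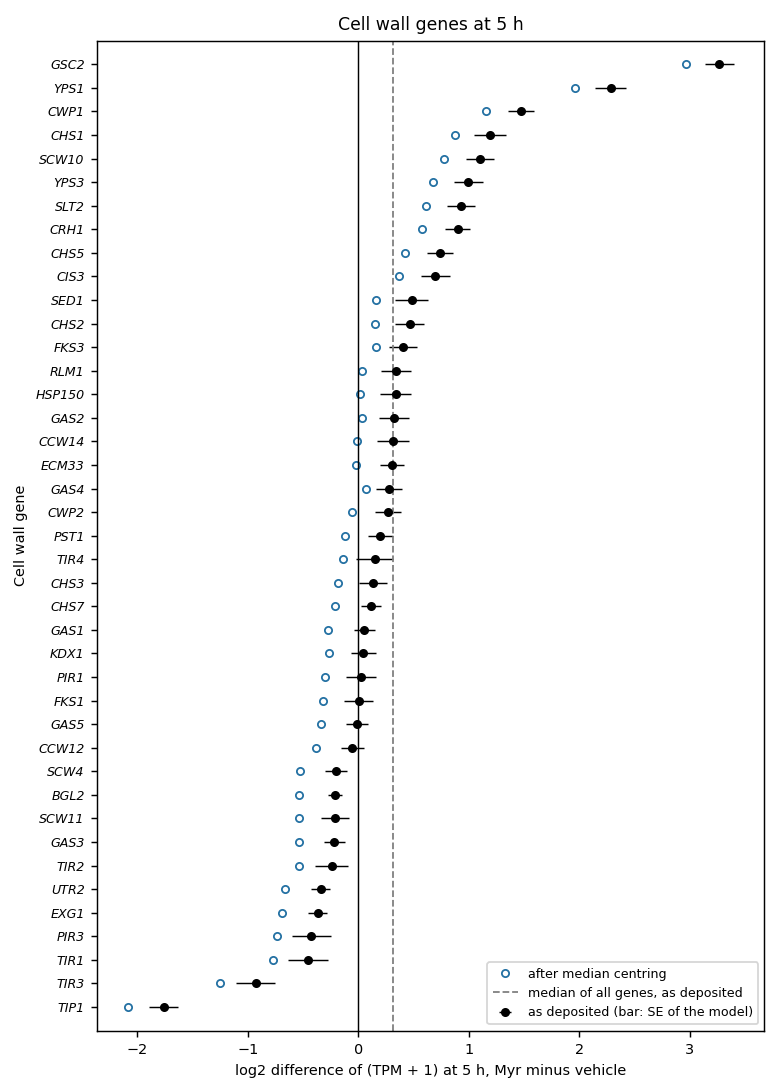
Log2 difference of (TPM + 1) at 5 h between Myr and vehicle for each of the 41 wall genes, as deposited (black, bars are the SE of the model, 3 libraries a group) and after median centring (open blue), with the median of all genes (0.31) as a dashed line. GSC2 (3.27) and YPS1 (2.28) lie furthest above the line and TIP1 (-1.76) furthest below it.

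Changes from 4 to 5 h were then compared within each treatment. With Myr, 16 wall genes rose and 4 fell from 4 to 5 h, where 32.9% of all genes rose and 6.69% fell. The largest rises were those of CWP1 (2.20), GSC2 (2.10), YPS1 (1.72), SLT2 (1.02) and CHS1 (1.01), and the 4 that fell were TIP1, SCW11, PIR1 and SCW4, of which 2 passed without Myr library A or C of 4 h or A or B of 5 h. In vehicle 2 rose, CWP1 and UTR2, and 0 fell, where 1.72% and 0.836% of all genes did. By limma, 8 fell in vehicle when library B of 4 h was left out. CWP1 therefore rose in both treatments, by 0.83 (SE 0.12) in vehicle and 2.20 (SE 0.12) with Myr, and UTR2 by 0.44 and 0.45.

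Dilution of the saturated culture moved wall genes in both directions. From 0 to 1 h in vehicle 15 wall genes rose and 17 fell, where 29.3% of all genes rose and 52.6% fell and the median of all genes was -0.38. After median centring, 23 rose and 14 fell, where 41.9% and 43.5% of all genes did. PIR3 fell from 2497, 2363 and 2496 TPM to 53.5, 51.0 and 49.0 TPM, a difference of -5.56 (SE 0.17). PST1 fell from 1070 ± 118 to 205 ± 20.2 TPM (SD, n = 3), SED1 from 5991 ± 591 to 1592 ± 245 TPM and GSC2 from 113 ± 8.59 to 17.6 ± 2.36 TPM. UTR2 rose from 23.3, 20.1 and 18.4 TPM to 198, 208 and 229 TPM, a difference of 3.30 (SE 0.10). GAS3 rose by 2.07, SCW4 by 1.60, GAS1 by 1.57, SCW10 by 1.47 and CHS3 by 1.43. Of the 12 remodelling enzymes 8 rose and 1, EXG1, fell.

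Some of the genes that fell on dilution were later higher with Myr, and others, such as TIP1, were lower. GSC2, YPS1, CWP1, CHS1 and YPS3 fell by 2.62, 1.98, 1.55, 1.04 and 1.31 from 0 to 1 h in vehicle and were higher with Myr at 5 h. Their Myr levels at 5 h set against those of vehicle at 0 h were 76.1 and 113 TPM for GSC2, 132 and 98.8 TPM for YPS1, 154 and 151.2 TPM for CWP1, 61.3 and 66.5 TPM for CHS1 and 42.2 and 91.8 TPM for YPS3. SED1 (1911 and 5991 TPM), PST1 (126 and 1070 TPM) and PIR3 (16.5 and 2452 TPM) stayed far below their levels at 0 h. In the Myr libraries of 0 h GSC2 was at 125, 121 and 143 TPM and YPS1 at 113, 120 and 161 TPM. CWP1 was there at 74.7, 59.3 and 66.2 TPM, below its Myr level at 5 h. CHS1 was at 84.3, 74.8 and 109 TPM and YPS3 at 91.0, 88.7 and 93.5 TPM. SCW10 and CIS3 were higher at 5 h after rising on dilution, by 1.47 and 1.01. Of the 18 wall genes higher at 5 h, 9 fell from 0 to 1 h (50%) and 5 rose. Of the 8 that were lower at 5 h, 4 fell (50%) and 2 rose, and of the 15 others 4 fell (26.7%) and 8 rose. In the full list, 71.2% of the 3121 genes higher at 5 h fell, 29.3% of the 239 lower and 32.6% of the 2623 others.

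**Figure D5:**
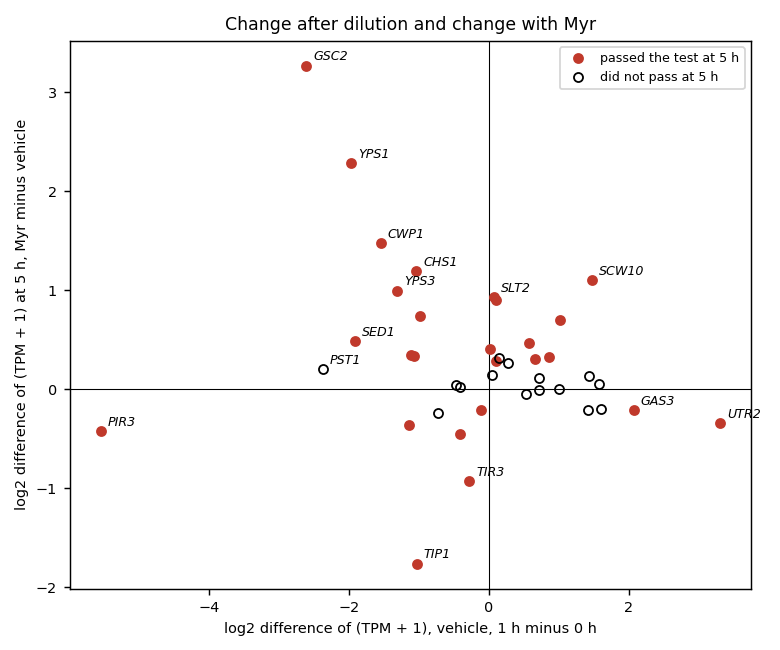
Log2 difference of (TPM + 1) between 1 h and 0 h in vehicle (x axis) and between Myr and vehicle at 5 h (y axis) for the 41 wall genes, filled red where the test at 5 h was passed. GSC2 and YPS1 lie at the upper left (-2.62 and 3.27, -1.98 and 2.28), PIR3 at the far left (-5.56) and UTR2 at the far right (3.30).

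Over growth from 1 to 6 h, 20 wall genes rose and 16 fell in vehicle, where 43.8% and 26.9% of all genes did, and 16 rose and 15 fell with Myr, where 51% and 22.2% did. TIR1 rose most in both, by 2.34 in vehicle and 3.29 with Myr, from 9.81 to 11.4 TPM in the vehicle libraries of 1 h. CWP1 rose by 2.02 and 2.62 and CHS2 by 1.65 and 2.21. GSC2 fell by 1.03 in vehicle and rose by 1.50 with Myr. SLT2 fell by 1.27 in vehicle and by 0.44 with Myr.

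Several wall genes lie next to each other, which the choice of genes did not use. There are 7 pairs that are direct neighbours among protein-coding genes: HSP150 and CIS3, PIR1 and PIR3, CWP2 and CWP1, YPS1 and YPS3, SCW10 and FKS3, FKS3 and GAS1, and TIR4 and TIR2. PIR1 and PIR3 are read away from each other from a shared stretch of 1581 bases on chromosome XI, as are SCW10 and FKS3 from 926 bases on chromosome XIII. At 6 h PIR3 was higher by 1.22 and PIR1 had a difference of 0.18 that did not pass. At 5 h SCW10 was higher by 1.10, FKS3 by 0.41 and GAS1 differed by 0.05. Whether neighbours differed from each other in their response was not tested.

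Genes of other wall steps, from lists chosen by function, were also counted at 5 h, where 52.2% of all genes were higher and 3.99% lower with a median of 0.31. Of 107 tested genes on these lists 48 were higher and 8 lower, with a median of 0.25. Of 24 other genes of the integrity pathway 13 were higher and 1 lower, with a median of 0.34. They encode sensors, Rho1 and its regulators, the kinases, their phosphatases and the transcription factors Swi4 and Swi6. BAG7, for a Rho1 GTPase-activating protein, was higher by 1.25 (SE 0.14) and PTP2, for a phosphatase that acts on MAP kinases, by 0.81 (SE 0.15). WSC4, for a sensor-like protein, was lower by 0.76 (SE 0.13). Of 12 tested genes of chitin precursors, export and other chitin steps 6 were higher and 0 lower. Among the higher were BCH1 and BUD7 of the exomer family that also serves Chs3, by 0.64 and 0.62. Of 11 genes of beta-1,6-glucan 8 were higher and 0 lower, led by KRE6, a glucan synthesis gene, with 0.66 (SE 0.11).

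Against the same 52.2% and 3.99% of all genes, 6 of 24 mannosylation genes were higher and 2 lower, with a median of 0.06. KTR2, for a mannosyltransferase, was higher by 0.90 (SE 0.10) and OCH1, which starts the outer chain of N-linked mannan, by 0.63 (SE 0.12). Of 23 other GPI-anchored wall proteins 9 were higher and 2 lower. SPI1, for a wall protein of stationary phase, was higher by 2.35 (SE 0.11) and NCW2, for a wall protein, by 2.26 (SE 0.11), while PLB2, for a phospholipase, was lower by 1.48 (SE 0.11). Of 13 genes of the SUN family and of daughter cell separation 6 were higher and 3 lower. At 0 h 7 of them were already higher and 0 lower, where 8.26% and 3.63% of all genes were. NCA3, of the SUN family, was higher by 1.16 (SE 0.11) at 5 h.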

How the data were processed

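RNA-seq of poly-A RNA from 42 yeast samples was deposited as 1 table. The authors estimated TPM with Salmon 0.8.2 after bcl2fastq 2.17.1.14 and Trimmomatic 0.36, versions per the submitters' processing notes, and deposited TPM that total 1000000 per library. TPM keeps no depth, so depth is unknown and no counting interval could be given. Columns were assigned to groups by treatment, hour and a library letter, and 0 sample columns were unused. Of the gene IDs, 6103 matched the R64 annotation. The authors' own comparisons were not used.

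Values were log2(TPM + 1), and genes averaging under 1 TPM at 1 to 6 h were left out. limma 3.58.1 (R 4.3.3) was fitted to 12 group means of 36 libraries with a variance trend, and to all 42 libraries for 0 h and for 1 h against 0 h. Benjamini-Hochberg adjusted p under 0.05, within a comparison, was the threshold, and p of 0.01 or less for the mean effect, time and interaction. The p-values measure the spread between libraries of a group, whose letters are tied to no flask. Alternatives were pseudocounts of 0.1 and 10, no filter or a minimum of 10 TPM, median centring, scaling to 34 of the 92 spike-ins (held at their level at 0 h of the same treatment), removal of the trend with coding length, a fit of each hour alone, leaving out the libraries rich in RPL41A, no variance trend, the column letter as a random block, adjusted p for the 3 terms, a 2-way analysis of variance for these, and leaving out each library. The fits were tested on simulated data.

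Values are given for every library at the hour of the largest change for genes that passed with a log2 difference of at least 1, other wall genes are given by counts and examples, and each other list by up to 4 of its largest called changes at 5 h. The wall genes and lists were chosen with earlier results of these data known. A further upstream motif was searched and is not reported here. Sequences are from the R64 RefSeq genome, and identity and shared words of 31 bases from its coding sequences. Other steps used Python 3.11.15 with pandas 2.3.3, scipy 1.17.1, matplotlib 3.10.9 and numpy 2.4.6.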

Additional observations from a re-analysis of the deposited data

Results flagged for a closer look

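For 24 wall genes the difference between Myr and vehicle changed with the hour (interaction term of limma, p of 0.01 or less, hours of 1 flask taken as independent). The span, the highest minus the lowest hourly log2 difference of 1 to 6 h, was 3.09 for GSC2, 2.12 for YPS1 and 2.09 for TIP1. It was 1.81 for TIR1, 1.65 for PIR3, 1.37 for CWP1, 1.13 for CHS1, 1.05 for SCW11 and 1.00 for TIR2. Among genes with a smaller span it was 0.97 for KDX1, 0.93 for YPS3, 0.90 for SLT2, 0.88 for UTR2, 0.87 for SCW10, 0.84 for SED1 and 0.81 for EXG1. It was 0.78 for GAS3, 0.77 for CHS5, 0.73 for CIS3, 0.72 for PST1, 0.67 for CRH1, 0.66 for PIR1, 0.65 for SCW4 and 0.38 for BGL2.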

How the results depend on the processing

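Of 302 counts of wall genes under settings other than leaving out a library 228 stayed within 1.5 times the reported one. With a pseudocount of 10, 4 were higher at 0 h. Median centring gave 6 higher with 13 lower at 0 h, 19 higher at 1 h, 4 lower at 2 h, 4 higher with 5 lower at 3 h, 9 lower at 4 h, 10 higher with 19 lower at 5 h, 11 lower at 6 h and 15 higher with 12 lower averaged over 1 to 6 h. It gave 23 risen from 0 to 1 h in vehicle, 23 fallen from 1 to 6 h with Myr, and from 4 to 5 h 6 risen with 4 fallen in vehicle and 12 fallen with Myr. Over all 5983 genes the centred counts were 790 higher with 798 lower at 0 h and 422 higher at 1 h. They were 485 lower at 2 h, 352 higher with 280 lower at 3 h and 211 lower at 4 h. They were 1412 higher with 1243 lower at 5 h and 649 lower at 6 h. Averaged over 1 to 6 h they were 1583 higher with 1109 lower. In vehicle 2505 rose from 0 to 1 h, and with Myr 2351 fell from 1 to 6 h. From 4 to 5 h 459 rose with 391 fallen in vehicle, and 1258 fell with Myr. Spike-in scaling gave 1 higher with 1 lower at 0 h, 14 higher with 0 lower at 1 h, 40 higher with 0 lower at 2 h, 38 higher with 0 lower at 3 h, 34 higher with 0 lower at 4 h, 30 higher with 1 lower at 5 h, 1 lower at 6 h and 39 higher with 0 lower averaged over 1 to 6 h. It gave 28 risen with 5 fallen from 0 to 1 h, 9 risen from 1 to 6 h in either treatment, and 0 risen in vehicle and 6 with Myr from 4 to 5 h. Each hour fitted alone gave 0 higher with 0 lower at 0 h, 11 higher with 0 lower at 1 h, 23 higher at 2 h, 4 higher at 3 h, 0 higher with 0 lower at 4 h and 8 lower at 6 h. Without the RPL41A-rich libraries there were 8 higher with 8 lower at 0 h, 16 higher at 1 h, 23 higher at 2 h, 1 higher at 3 h, 1 higher at 4 h, 9 lower at 6 h and 4 fallen in vehicle from 4 to 5 h. Without the coding length trend there were 4 higher with 13 lower at 0 h, 19 higher at 1 h, 9 higher with 2 lower at 2 h, 4 higher with 7 lower at 3 h, 10 lower at 4 h, 10 higher with 19 lower at 5 h, 13 lower at 6 h and 13 higher with 13 lower averaged over 1 to 6 h. There were also 23 risen from 0 to 1 h, 24 fallen from 1 to 6 h with Myr, and from 4 to 5 h 5 risen with 5 fallen in vehicle and 15 fallen with Myr. The cause of these shifts was not tested. Counts over all genes were taken only as deposited, after median centring and after spike-in scaling.

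Leaving out each library gave 1 to 7 higher and 2 to 8 lower at 0 h, 3 to 9 higher and 0 to 1 lower at 1 h, 4 to 19 higher at 2 h, 2 to 19 higher at 3 h, and 1 to 5 higher with 1 to 5 lower at 4 h. It gave 13 to 20 higher and 5 to 9 lower at 5 h, 14 to 21 higher and 3 to 8 lower at 6 h, 0 to 8 fallen in vehicle and 2 to 4 fallen with Myr from 4 to 5 h. The 371 values of the 7 genes past 2-fold kept direction and call, but most came from leaving out 1 library, often of an hour not compared. No paired analysis was possible because the columns carry a letter and no replicate number, and nothing ties the letters to flasks. With the column letter as a random block (estimated correlation 0.18), the counts at 5 h were 15 higher with 7 lower, and no count moved beyond 1.5 times. The unknown depth limits what can be said of the least abundant genes, FKS3 and GAS4.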
